A study of Homo sapiens with 8 samples.

Results

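The genes described here act in the signalling and repair of DNA double-strand breaks. They were 39 genes listed by their known roles, with no threshold on a measured value, though the list was drawn up with earlier results of these data known. They were matched by Ensembl gene ID and symbol to a table of 63140 genes. All 39 were found, and all 39 passed the filter on low counts that left 24057 genes to test. By role they were 11 genes of homologous recombination, 6 of end resection, 10 of break signalling, 7 of classical end joining, 2 of alternative end joining and 3 of the Fanconi anaemia pathway.

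The data were RNA counts of 8 human acute myeloid leukaemia libraries made by chromatin isolation by RNA purification (ChIRP), in which biotinylated DNA probes pull down an RNA with the material bound to it. The target of the probes is not stated in the labels and no input library is named, so each value is an amount of RNA in a pull-down and not a cellular expression level. Every library came from nucleofected cells collected on day 3. The 4 groups of 2 libraries were AAVS1 KO (Cas9 cutting at the control site AAVS1, an intron of PPP1R12C, genotype labelled WT), HOTSCRAMBL KO (Cas9 cutting at the long non-coding RNA gene HOTSCRAMBL), AAVS1 CBE (a cytosine base editor at AAVS1, genotype labelled WT) and HOTSCRAMBL CBE (the base editor at HOTSCRAMBL). All 4 groups thus carry an editor and a guide, and none is unedited. Cas9 ribonucleoprotein makes a double-strand cut, whereas a cytosine base editor changes C to T without one. Replicate 1 of each group is labelled MOLM13 and replicate 2 OCI-AML4, both established acute myeloid leukaemia lines. The level of HOTSCRAMBL itself was not analysed here.

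A double-strand break is sensed by the MRE11, RAD50 and NBN complex, which activates the kinase ATM. ATM phosphorylates the histone variant H2AX, MDC1 binds the phosphorylated histone, and the ubiquitin ligases RNF8 and RNF168 then bring in TP53BP1 or the BRCA1 complex. Ends that are not resected are bound by the Ku dimer (XRCC5 and XRCC6) and joined directly, while resected ends enter homologous recombination through BRCA2, or are joined by the polymerase POLQ. The Fanconi anaemia proteins, with FANCD2 and FANCI at their centre, act on crosslinks and stalled forks and feed into recombination.

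Total counts ran from 20548300 to 37970163 per library, and 21945 to 26083 genes were detected. The lowest count of a member in any library was 46 (NHEJ1) and the highest 53865 (PRKDC). Defining myeloid markers were present, with mean levels of 665 CPM (counts relative to the library's total, scaled by the TMM method) for CSF3R, 265 for SPI1 and 169 for CD33. HBB, CD3E and KRT19 were at 0. Between the libraries labelled MOLM13 and OCI-AML4, 119 of 24057 genes (0.495%) passed the test, and deviations from the group means correlated between same-numbered libraries at no more than 0.121 across genes. Whether the replicate labels mark separate lines was not tested, and p-values measure only the spread between these libraries.

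Per length, the members spanned a wide range. Levels were divided by the exon bases that no other gene shares, since reads over shared bases were not counted. H2AX was at 52.0 CPM per kb of such exon over all libraries, PRKDC, the DNA-dependent protein kinase, at 45.9 and XRCC6 at 31.8. The median member was RAD50, at 7.67 CPM per kb, of whose exon bases only 23.1% are unshared. RAD51B and RAD51C were near the bottom, at 1.90 and 1.87 CPM per kb, and NHEJ1, which stabilises the end-joining ligase complex, was lowest at 0.642 CPM per kb.

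The first question was what Cas9 editing of HOTSCRAMBL did to these genes relative to Cas9 editing of AAVS1. POLQ, the Fanconi genes FANCA, FANCD2 and FANCI, and the recombination genes BRCA1, BRCA2 and RAD54L fell, as did MRE11, MDC1 and TP53BP1. H2AX, RNF168 and XRCC6 rose. The changes called lay between -1.01 and 1.12 on the log2 scale. In all, 13 of 39 members passed an adjusted p of 0.05, 3 upward and 10 downward, against 8.76% of all genes tested (4.51% upward and 4.25% downward). Of the 11773 genes within the members' range of levels, 1884 passed. The members' median log2 difference was -0.18, beside -0.01 over all genes, and 29 of 39 were negative. The 13 called members moved the same way in both replicate pairs, as did 30 of all 39. A call made on these same pairs favours a shared direction, so this adds no support. In bulk libraries, fewer cells of a type and less RNA per cell cannot be told apart.

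All 3 Fanconi members fell with Cas9 editing, with a median difference of -0.80. FANCD2, which is ubiquitinated with FANCI to open the pathway, stood at 165 and 164 CPM in AAVS1 KO and at 102 and 78.5 CPM in HOTSCRAMBL KO. Both edited libraries lay below both controls, and the log2 difference was -0.88 (SE 0.146, edgeR adjusted p 0.000144). FANCI was at 182 and 163 CPM in the controls and at 106 and 104 CPM after editing. Its groups did not overlap either, and it fell by 0.71 on the log2 scale (SE 0.14, edgeR adjusted p 0.000966). FANCA, a subunit of the core ubiquitin ligase, went from 179 and 160.5 CPM to 102 and 92.6 CPM. That log2 difference was -0.80 (SE 0.146, edgeR adjusted p 0.000424). FANCA shares 19.6% of its exon bases with ZNF276 on the opposite strand, and counting did not use strand.

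POLQ, the polymerase of alternative end joining, had the smallest adjusted p of the members in this comparison. It was at 222 and 168 CPM in AAVS1 KO and at 108 and 89.9 CPM in HOTSCRAMBL KO, so the groups were well apart. The log2 difference was -0.97 (SE 0.142, edgeR adjusted p 2.16e-05). PARP1, the other member of that role, was at -0.26 and did not pass (edgeR adjusted p 0.384).

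Of the 11 recombination genes, 3 fell, none rose and the median was -0.18. BRCA2, a mediator of strand exchange, was at 79.3 and 78.1 CPM in the controls and at 49.5 and 46.0 CPM in the edited libraries. The 2 edited libraries were close to each other and below both controls, with a log2 difference of -0.72 (SE 0.196, edgeR adjusted p 0.0187). BRCA1 went from 114 and 102 CPM to 80.5 and 62.8 CPM, a difference of -0.60 (SE 0.167, edgeR adjusted p 0.0213). RAD54L, a motor protein that helps strand exchange, went from 48.9 and 35.7 CPM to 20.6 and 20.9 CPM. This was the most negative difference of a member with Cas9 editing, at -1.01 (SE 0.279, edgeR adjusted p 0.0198), and RAD54L shares 19.9% of its exon bases with LRRC41. The other members of this role did not pass, with PALB2 at -0.04, RAD51D at 0.00 and RAD52 at -0.18.

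MRE11, the nuclease that starts resection, was the one of 6 resection genes to pass. It went from 121 and 128 CPM to 96.4 and 67.6 CPM, below the controls in both libraries (difference -0.61, SE 0.169, edgeR adjusted p 0.0209). Its partners RAD50 and NBN were at -0.30 and -0.12 and did not pass, so the 3 subunits of the complex were not called together.

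Break signalling held changes in both directions, with 2 of 10 members higher and 2 lower. H2AX rose from 56.1 and 60.8 CPM to 148 and 107 CPM. Both edited libraries exceeded both controls, and the difference of 1.12 (2.18-fold, SE 0.201, edgeR adjusted p 0.000348) was the most positive of any member. RNF168, which spreads the ubiquitin mark next to the break, rose from 58.3 and 78.0 CPM to 113 and 122 CPM (difference 0.79, SE 0.171, edgeR adjusted p 0.00281). MDC1, the adaptor between phosphorylated H2AX and RNF8, moved the other way. It went from 224 and 196 CPM to 157 and 138 CPM, a difference of -0.52 (SE 0.142, edgeR adjusted p 0.0206). TP53BP1, which limits resection, averaged 108 ± 5.56 CPM (SD, n = 2) in the control libraries and 72.9 ± 9.51 CPM after editing. It passed narrowly, at -0.56 (SE 0.179, edgeR adjusted p 0.048), and shares 28.8% of its exon bases with TUBGCP4. The kinase ATM was at -0.06 (95% interval -0.27 to 0.15) and ATR at -0.13 (95% interval -0.45 to 0.20). Neither passed.

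In classical end joining 1 of 7 members was called. XRCC6, the Ku70 subunit, rose from 75.3 and 75.9 CPM to 100.9 and 132 CPM (difference 0.63, SE 0.169, edgeR adjusted p 0.0176). XRCC5, the Ku80 subunit, was at 0.41 and did not pass (edgeR adjusted p 0.0944). PRKDC was at -0.08 (95% interval -0.25 to 0.08), LIG4 at 0.04 and DCLRE1C, the Artemis nuclease, at -0.03.

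**Figure D1:**
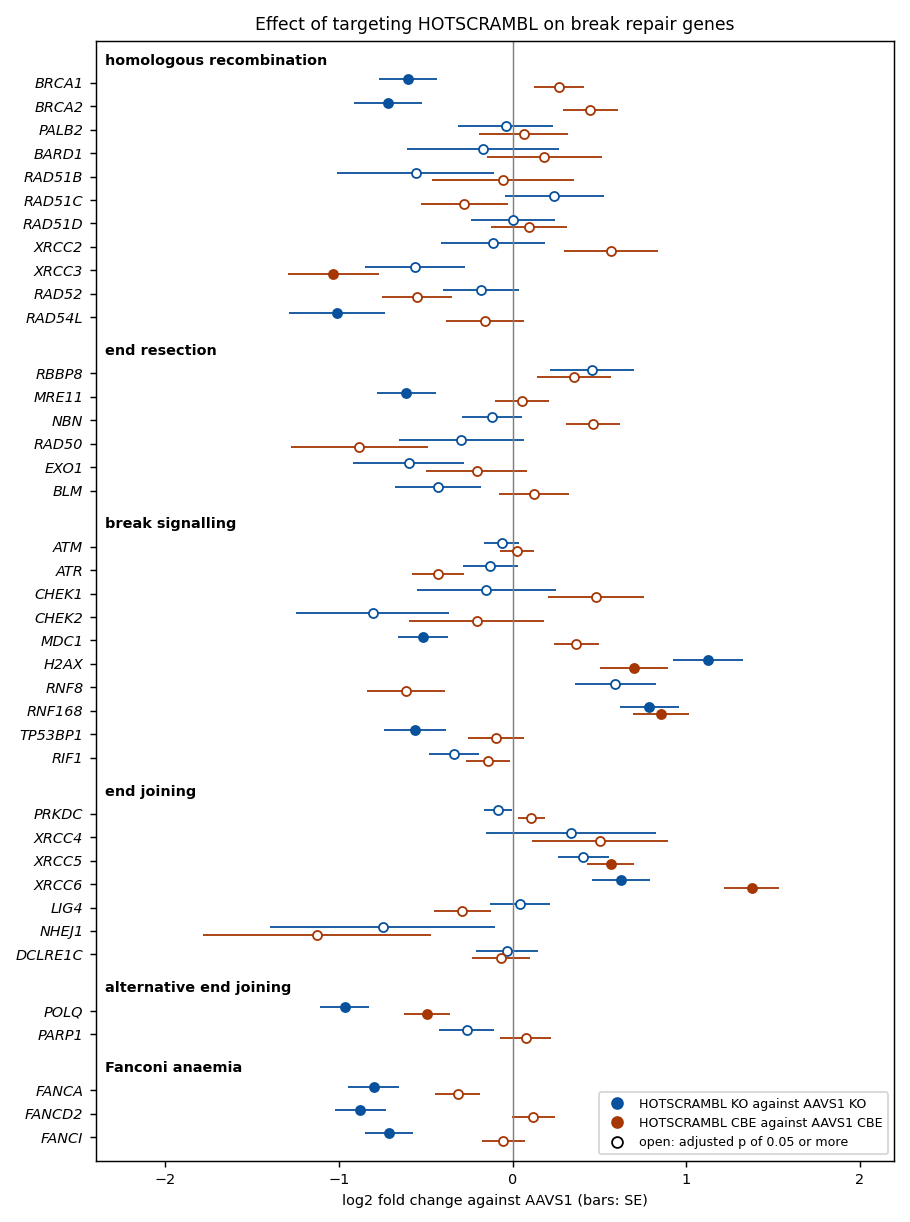
Log2 difference of HOTSCRAMBL against AAVS1 for the 39 genes, by role, with Cas9 (KO) and with the base editor (CBE). Points are edgeR estimates, bars are 1 SE, and filled points passed an adjusted p of 0.05. With Cas9 29 of 39 estimates lie below 0, and with the base editor 18 of 39.

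The promoters of the 3 members with the smallest p upward and the 3 downward with Cas9 editing are printed to set genes that moved apart beside each other. Each sequence runs 5′ to 3′ on the gene's strand, from 250 bases before to 50 bases after the RefSeq transcription start (GRCh38.p14). Capitals mark letters of an E2F site (TTTCCCGC, TTTGGCGC, TTTCGCGC or TTTGCCGC) and CCAAT, on either strand.
H2AX, chr11:119095416-119095715, minus strand: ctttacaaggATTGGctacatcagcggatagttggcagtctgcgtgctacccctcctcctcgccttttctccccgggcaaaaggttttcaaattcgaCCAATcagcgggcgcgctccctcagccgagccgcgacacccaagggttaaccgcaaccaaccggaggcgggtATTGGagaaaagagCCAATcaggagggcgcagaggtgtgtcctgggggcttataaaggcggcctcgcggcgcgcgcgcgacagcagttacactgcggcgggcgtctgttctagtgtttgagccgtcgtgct
RNF168, chr3:196503719-196504018, minus strand: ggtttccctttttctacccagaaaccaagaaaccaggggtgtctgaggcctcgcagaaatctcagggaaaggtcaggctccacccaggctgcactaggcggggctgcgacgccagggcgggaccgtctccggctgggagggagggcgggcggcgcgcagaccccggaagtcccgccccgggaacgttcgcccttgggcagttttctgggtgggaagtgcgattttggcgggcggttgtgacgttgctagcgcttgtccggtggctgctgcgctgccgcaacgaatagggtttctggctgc
XRCC6, chr22:41621045-41621344, plus strand: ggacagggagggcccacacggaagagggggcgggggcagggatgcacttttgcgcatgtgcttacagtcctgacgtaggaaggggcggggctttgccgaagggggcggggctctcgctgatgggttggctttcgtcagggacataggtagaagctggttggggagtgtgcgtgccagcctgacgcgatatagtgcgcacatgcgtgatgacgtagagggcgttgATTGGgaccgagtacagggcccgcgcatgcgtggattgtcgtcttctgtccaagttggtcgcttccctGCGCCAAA
POLQ, chr3:121545939-121546238, minus strand: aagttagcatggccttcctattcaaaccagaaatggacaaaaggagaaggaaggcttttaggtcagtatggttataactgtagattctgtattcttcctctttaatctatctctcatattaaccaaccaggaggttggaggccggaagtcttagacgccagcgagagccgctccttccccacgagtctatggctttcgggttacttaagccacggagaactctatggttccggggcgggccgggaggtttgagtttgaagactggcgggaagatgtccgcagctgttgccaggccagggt
FANCD2, chr3:10026187-10026486, plus strand: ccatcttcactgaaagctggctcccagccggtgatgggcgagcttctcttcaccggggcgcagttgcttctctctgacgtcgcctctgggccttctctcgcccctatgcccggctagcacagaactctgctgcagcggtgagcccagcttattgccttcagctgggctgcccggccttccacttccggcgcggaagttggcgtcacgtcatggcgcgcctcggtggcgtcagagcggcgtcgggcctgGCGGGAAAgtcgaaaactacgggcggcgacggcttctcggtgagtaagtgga
FANCA, chr16:89816598-89816897, minus strand: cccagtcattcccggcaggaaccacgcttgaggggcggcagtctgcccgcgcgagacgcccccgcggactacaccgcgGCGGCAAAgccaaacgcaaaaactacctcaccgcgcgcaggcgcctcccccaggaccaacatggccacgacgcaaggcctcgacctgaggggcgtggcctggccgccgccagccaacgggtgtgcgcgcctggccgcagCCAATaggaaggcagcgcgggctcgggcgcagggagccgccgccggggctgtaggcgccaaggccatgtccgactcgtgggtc

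H2AX held 4 CCAAT matches and no E2F letters, and XRCC6, FANCD2 and FANCA held 1 E2F match each. RNF168 and POLQ held no exact match to either motif, and stretches with a changed letter were not counted for any gene. RefSeq promoters were matched for 35 of 39 members, without PRKDC, FANCI, NBN and XRCC5. E2F letters were in 5 of 35 (14.3%), beside 3.3% of all 27305 promoters of this length, and CCAAT in 48.6% beside 35.7%. The motifs named CHR and NRF1 were searched too, and are not marked in the sequences above. Neither was more frequent among the members. CHR letters were in 14.3% beside 15.4% of all promoters, and NRF1 letters in 0 of 35 beside 1.4%. Among members with a promoter, E2F letters occurred in 2 of 9 that fell with Cas9, 1 of 3 that rose and 2 of 23 not called. These matches describe letters in the window and do not show binding.

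Base editing of HOTSCRAMBL was then compared with base editing of AAVS1. XRCC6, XRCC5, H2AX and RNF168 rose, XRCC3 and POLQ fell, and none of the Fanconi or resection genes passed. The called members made up 6 of 39 (15.4%), 4 upward and 2 downward, against 8.83% of all genes tested (4.56% upward and 4.27% downward). Of the 11773 genes within the members' range of levels, 1968 passed. The members' share was near that of these genes, so the count is not a result about the members. The median of the members was 0.05, beside -0.02 over all genes, with 21 positive and 18 negative. All 6 moved the same way in both replicate pairs, from which they were called, as did 32 of all 39.

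XRCC6 changed most, from 59.7 and 63.6 CPM at AAVS1 to 165 and 153 CPM at HOTSCRAMBL. The groups were far apart, and the difference was 1.38 (2.60-fold, SE 0.157, edgeR adjusted p 6.27e-07). XRCC5 rose with it, from 111 and 103 CPM to 159 and 158 CPM (difference 0.57, SE 0.136, edgeR adjusted p 0.00696). Both Ku subunits therefore passed with the base editor. The other 5 end-joining members did not, with PRKDC at 0.11 and NHEJ1, the least counted, at -1.13 with an SE of 0.66.

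RNF168 rose from 59.7 and 67.4 CPM to 114 CPM in each library labelled HOTSCRAMBL CBE (difference 0.86, SE 0.161, edgeR adjusted p 0.000638). H2AX went from 47.6 and 62.4 CPM to 76.2 and 104 CPM, a difference of 0.70 (SE 0.197, edgeR adjusted p 0.0233). XRCC3, which supports recombination, fell from 50.9 and 37.8 CPM to 23.5 and 19.7 CPM (difference -1.03, SE 0.26, edgeR adjusted p 0.0103). XRCC3 shares 76.7% of its exon bases with KLC1, so its value rests on the remaining bases and on unstranded reads. POLQ fell from 188 and 141 CPM to 133 and 100.0 CPM (difference -0.49, SE 0.132, edgeR adjusted p 0.0159), and here the lower control lay only a little above the higher edited library. Among the genes that fell with Cas9, FANCD2 was at 0.12 (95% interval -0.14 to 0.37), FANCI at -0.05 (95% interval -0.30 to 0.20), BRCA1 at 0.27 and BRCA2 at 0.45. None of these passed with the base editor.

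**Figure D2:**
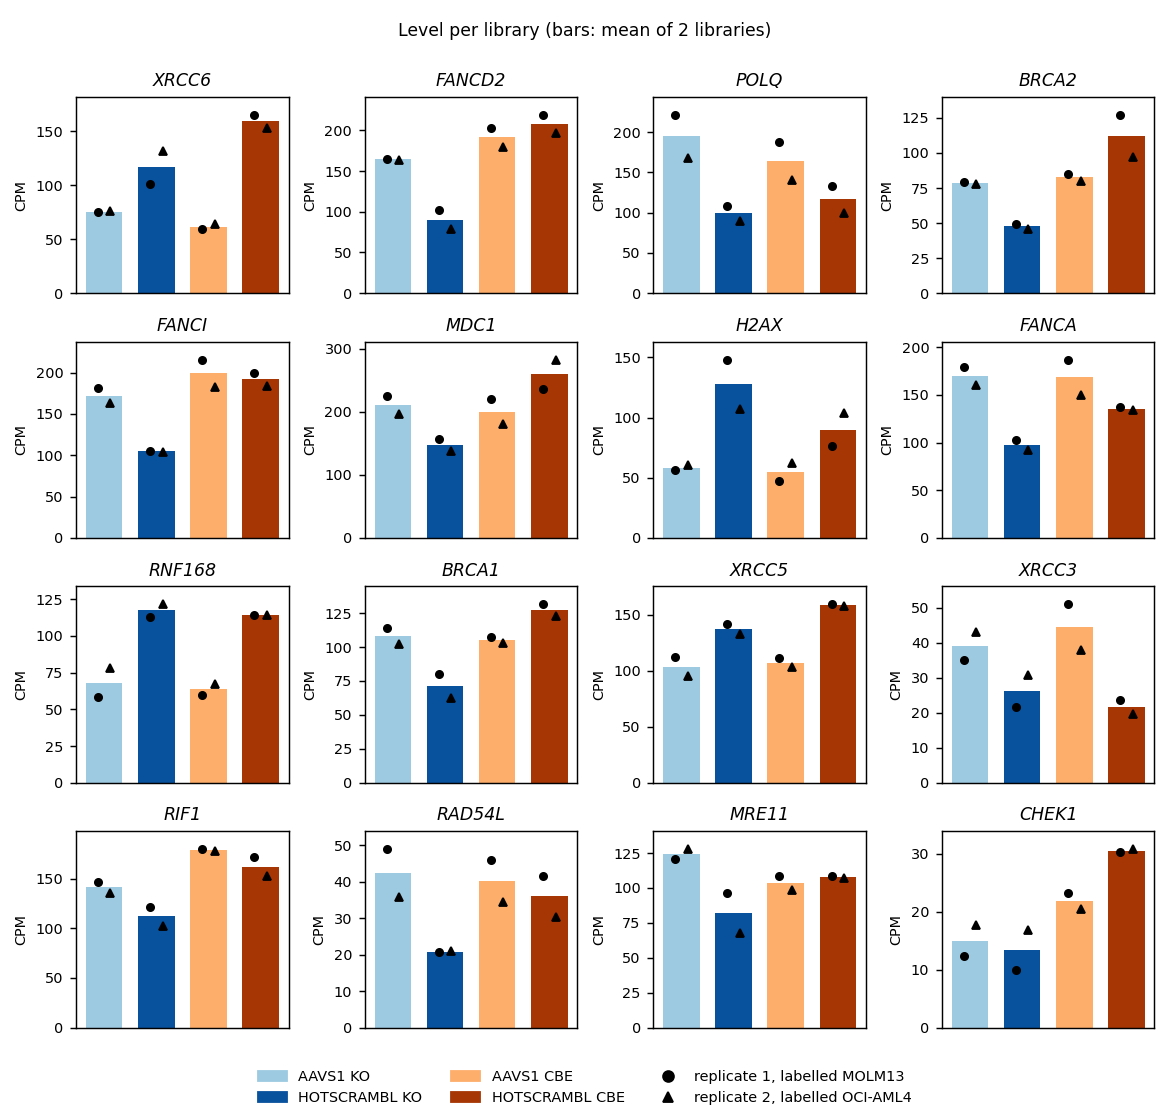
CPM in each of the 8 libraries for the 16 members with the smallest adjusted p. Bars are means of 2 libraries, circles are replicate 1 (labelled MOLM13) and triangles replicate 2 (labelled OCI-AML4). FANCD2 is lowest in HOTSCRAMBL KO, at 102 and 78.5 CPM, and XRCC6 highest in HOTSCRAMBL CBE, at 165 and 153 CPM.

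H2AX, RNF168, XRCC6 and POLQ were called with both editors, each in the same direction. These 4 made up 30.8% of the Cas9 calls and 66.7% of the base editing calls. The 2 comparisons contrast different libraries but were fitted in the same model with a shared spread, so their calls are not independent. Over all genes tested, 738 were called with both editors in the same direction, 35.0% of the Cas9 calls and 34.7% of the base editing calls, so with Cas9 the members' share was near that of all genes. To ask where the editors differed, the Cas9 effect minus the base editing effect was tested in the same model. BRCA1, BRCA2, FANCD2, FANCI and MDC1 had a lower effect with Cas9, and RNF8 a higher one. That was 6 of 39 members, 1 upward and 5 downward, against 3.19% of all genes (1.74% upward and 1.45% downward) and 702 of the 11773 genes in the members' range of levels. The median of this difference was -0.34 over the members and -0.01 over all genes.

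BRCA2 had the largest downward difference of effects, -1.17 (SE 0.252, edgeR adjusted p 0.00676). FANCD2 followed at -1.0 (SE 0.192, edgeR adjusted p 0.00245), then MDC1 at -0.88 (SE 0.193, edgeR adjusted p 0.00752) and BRCA1 at -0.87 (SE 0.221, edgeR adjusted p 0.0256). FANCI was at -0.66 and near the threshold (SE 0.186, edgeR adjusted p 0.0486). RNF8, the first ubiquitin ligase of the cascade, differed upward by 1.21 (SE 0.325, edgeR adjusted p 0.037) although neither effect passed alone, at 0.59 with Cas9 and -0.62 with the base editor. With Cas9 its mean was 41.8 ± 1.24 CPM (SD, n = 2) at AAVS1 and 63.5 ± 15.5 CPM at HOTSCRAMBL. With the base editor the means were 55.0 ± 11.1 CPM and 35.6 ± 0.711 CPM.

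Several members gave no call for a difference. RNF168 was at -0.07 (95% interval -0.55 to 0.42) and H2AX at 0.42 (95% interval -0.16 to 1.01). For XRCC6 it was -0.75 (SE 0.232, edgeR adjusted p 0.083), for POLQ -0.47 (edgeR adjusted p 0.237), and for FANCA -0.48 (edgeR adjusted p 0.235). These intervals do not show that the editors act alike on them.

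The editors were also set side by side at each site. At AAVS1, Cas9 against the base editor called 0 of 39 members with edgeR, as it called 0% of all genes, and DESeq2 also called 0 members. RIF1 alone had an unadjusted p under 0.05, at -0.34, where 3.82% of all genes did. The members' median was 0.02, with a range of -0.56 to 0.46. For 32 of 39 members the 95% interval lay within 1 log2 unit of no difference, and for 17 within 0.5 units.

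At HOTSCRAMBL, 10 of 39 members differed between Cas9 and the base editor, against 8.47% of all genes (4.49% higher and 3.97% lower) and 1759 of the 11773 genes in the members' range of levels. RNF8 was higher with Cas9, and BRCA1, BRCA2, CHEK1, MDC1, RIF1, BLM, FANCA, FANCD2 and FANCI were lower. This comparison shares its libraries with both effects above. FANCD2 was at 102 and 78.5 CPM with Cas9 and at 219 and 196 CPM with the base editor, a difference of -1.21 (SE 0.142, edgeR adjusted p 1.12e-06). BRCA2, at 49.5 and 46.0 CPM against 127 and 97.1 CPM, differed by -1.23 (SE 0.184, edgeR adjusted p 3.84e-05). The other 2 Fanconi members were at -0.87 for FANCI and -0.47 for FANCA.

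CHEK1, the checkpoint kinase downstream of ATR, was called in this comparison and in none of the other 4. It was at 9.90 and 16.8 CPM with Cas9 and at 30.2 and 30.8 CPM with the base editor (difference -1.19, SE 0.337, edgeR adjusted p 0.0264). Its AAVS1 levels, 12.3 and 17.8 CPM with Cas9 and 23.2 and 20.5 CPM with the base editor, ran the same way without a call. RIF1, a partner of TP53BP1 in end protection, was at 122 and 102 CPM against 171 and 153 CPM (difference -0.54, SE 0.14, edgeR adjusted p 0.0146). BLM, a helicase of resection and recombination, averaged 37.8 ± 20.8 CPM (SD, n = 2) against 62.5 ± 9.30 CPM (difference -0.75, SE 0.235, edgeR adjusted p 0.0449), with a wide spread in the Cas9 group.

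**Figure D3:**
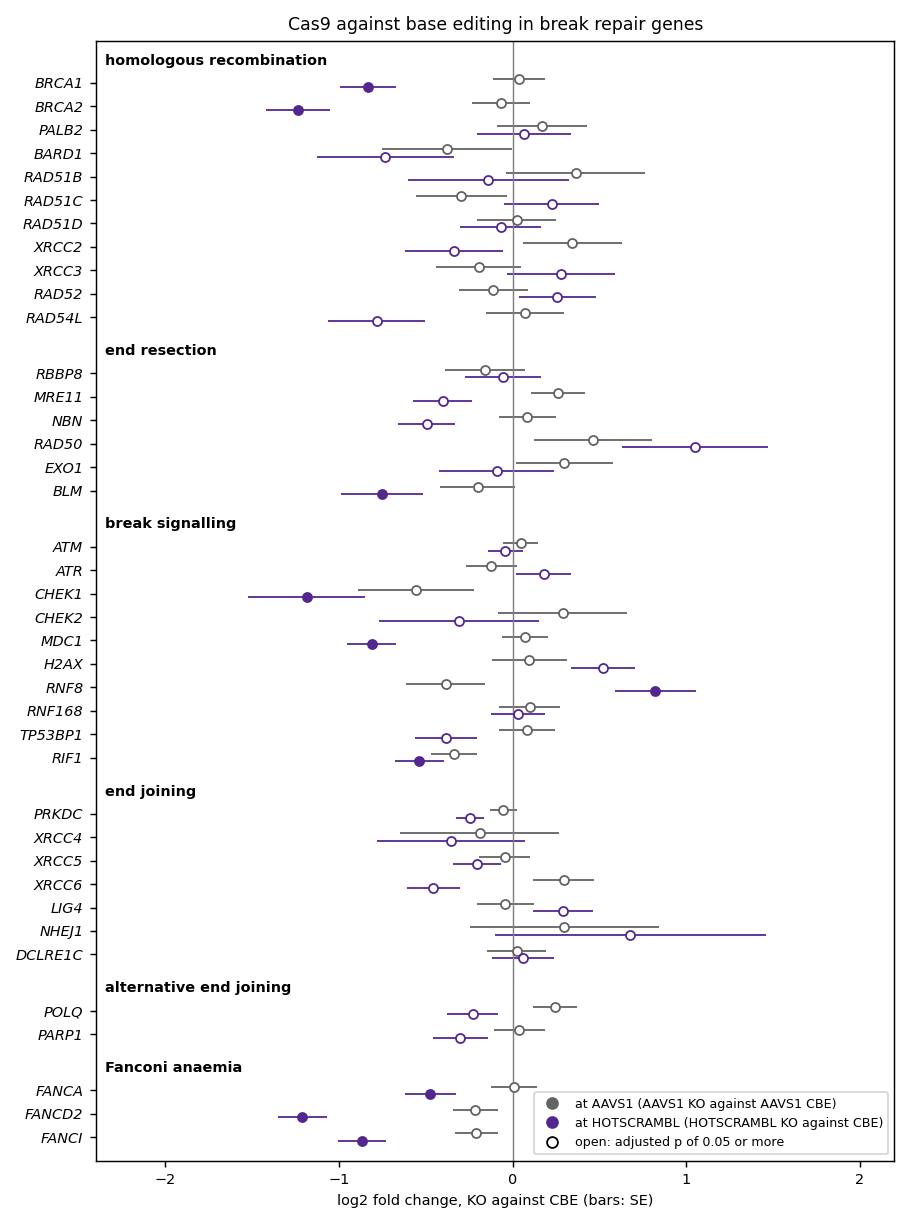
Log2 difference of Cas9 against the base editor at AAVS1 and at HOTSCRAMBL for the 39 genes. Points are edgeR estimates, bars are 1 SE, and filled points passed an adjusted p of 0.05. No gene is filled at AAVS1, and 10 are filled at HOTSCRAMBL.

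Over these 5 comparisons 19 members were called at least once and 20 were not. The uncalled ones were PALB2, BARD1, RAD51B, RAD51C, RAD51D, XRCC2, RAD52, RBBP8, NBN, RAD50, EXO1, ATM, ATR, CHEK2, PRKDC, XRCC4, LIG4, NHEJ1, DCLRE1C and PARP1. Their precision differed widely. The SE of the Cas9 effect was 0.079 for PRKDC and 0.646 for NHEJ1, so the 95% interval of NHEJ1 ran from -2.08 to 0.58. BARD1, the partner of BRCA1, had an interval of -1.07 to 0.73, and had 90 counts in HOTSCRAMBL KO replicate 1. Between the labelled lines 0 members passed with edgeR, against 0.495% of all genes, while 4 had an unadjusted p under 0.05 (9.19% of all genes did) and DESeq2 called 2.

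The summed level of all members was 4411 to 4759 CPM in AAVS1 KO, 3917 to 4190 in HOTSCRAMBL KO, 4455 to 4839 in AAVS1 CBE and 4816 to 5099 in HOTSCRAMBL CBE. HOTSCRAMBL KO was thus the group with the lowest sum. The Fanconi members summed to 487 to 526 CPM in AAVS1 KO and 275 to 310 CPM in HOTSCRAMBL KO, beside 515 to 556 CPM in HOTSCRAMBL CBE. The recombination members summed to 503 to 528 CPM in AAVS1 KO, 389 to 412 CPM in HOTSCRAMBL KO and 497 to 573 CPM in HOTSCRAMBL CBE. The resection and alternative end joining sums were also lower in HOTSCRAMBL KO than in AAVS1 KO. Break signalling, at 1206 to 1235 CPM in AAVS1 KO and 1132 to 1264 CPM in HOTSCRAMBL KO, overlapped. Classical end joining did too, at 1580 to 1746 CPM and 1635 to 1693 CPM.

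Other gene lists moved beside the members. For their counts, the shares of all genes tested that were called were 8.76% with Cas9 and 8.83% with the base editor. The 18 proliferation markers summed to 1537 to 1627 CPM in AAVS1 KO and 1375 to 1403 CPM in HOTSCRAMBL KO, with 1 higher and 3 lower. With the base editor they went from 1551 to 1757 CPM to 2157 to 2188 CPM, with 8 higher and none lower. The 12 p53 targets summed to 1173 to 1350 CPM in AAVS1 KO and 1696 to 1902 CPM in HOTSCRAMBL KO. With Cas9 6 of them rose and 3 were negative without a call. With the base editor 1 rose and 10 were negative without a call. Of 14 abundant cytosolic mRNAs, 13 rose with Cas9 and 14 with the base editor, while LDHA was at 0.59 with Cas9 (edgeR adjusted p 0.0594). They went from sums of 6907 to 7813 CPM to 16110 to 19630 CPM with Cas9. The myeloid list summed to 1825 to 1955 CPM in AAVS1 KO and 2201 to 2345 CPM in HOTSCRAMBL KO. Of its 10 genes LYZ and CEBPA rose, by 2.2 and 1.0 on the log2 scale, 7 were negative without a call and the median was -0.13. The lymphoid list, with NKG7 at a mean of 19.6 CPM and CD3E at 0, summed to 20.7 to 28.8 CPM in AAVS1 KO and 33.5 to 38.97 CPM in HOTSCRAMBL KO. The erythroid markers never exceeded a sum of 3.04 CPM. In the stromal and epithelial list PECAM1 rose with Cas9 by 0.74, and KRT19 was at 0. The part of these lists in the members' changes was not tested.

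**Figure D4:**
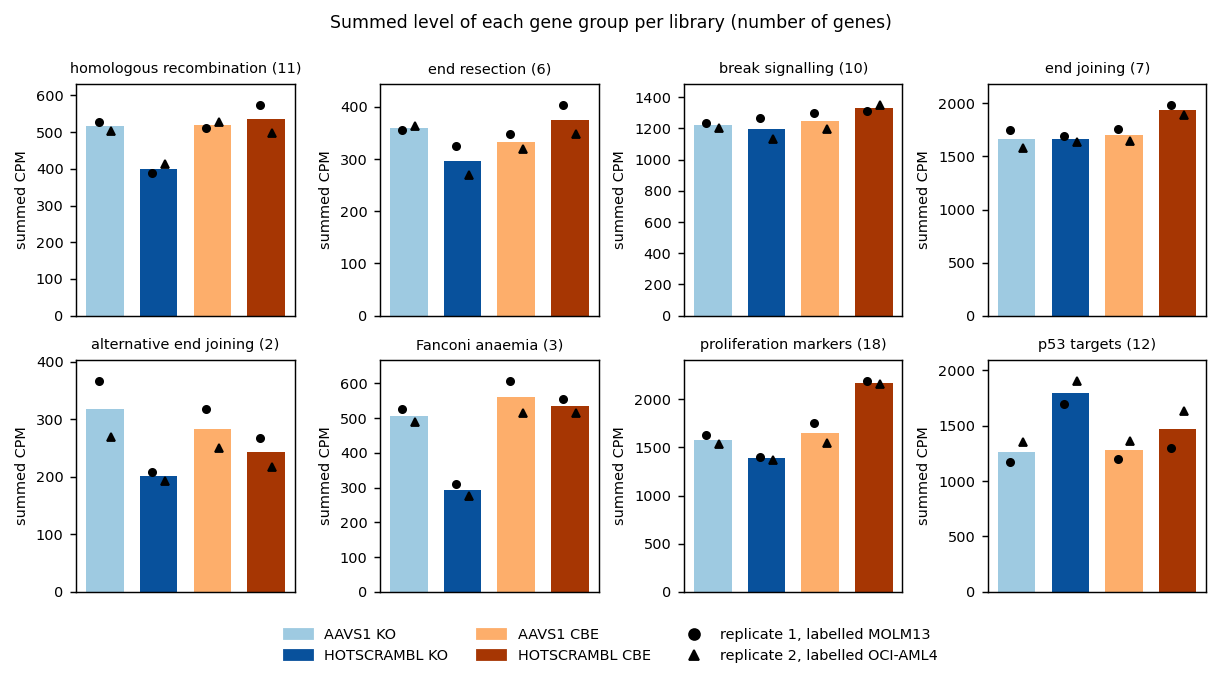
Summed CPM per library for the 6 roles and for 2 lists set beside them. Bars are means of 2 libraries, and points are the libraries. The Fanconi sum is lowest in HOTSCRAMBL KO, at 275 to 310 CPM, and the proliferation sum highest in HOTSCRAMBL CBE, at 2157 to 2188 CPM.

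A wider list of 68 repair genes outside the 39 was measured too. With Cas9 editing 2 were higher and 9 lower, with a median of -0.30. That was 16.2% of the list, beside 8.76% of all genes tested. It was near the share of the 11773 genes in the 39 members' range of levels, of which 1884 were called. Among its 9 Fanconi genes 2 were lower and 0 higher, with a median of -0.51. MUS81, a nuclease that cleaves joint molecules, was at -1.11 (SE 0.178, edgeR adjusted p 8.05e-05), and SLX4, the scaffold that binds it, at -0.82. DNA2, a resection nuclease, was at -2.00 and WRN, a RecQ helicase, at -0.57. BABAM2, a subunit of the BRCA1-A complex, and APLF, an end-joining scaffold, rose by 1.29 and 2.66. APLF was at low levels, 0.784 and 2.76 CPM in AAVS1 KO and 12.7 and 9.97 CPM in HOTSCRAMBL KO. Its SE was wide, at 0.709 (edgeR adjusted p 0.0157). With the base editor 3 fell and none rose, 4.41% beside 8.83% of all genes tested. Among those that fell POLM, an end-joining polymerase, was at -0.63 and SPIDR at -0.39. The difference of effects called 0 of the 68 with edgeR, beside 3.19% of all genes tested. An unadjusted p under 0.05 was found for 17 of the 68 and for 3399 of all 24057 genes. At HOTSCRAMBL 6 were lower with Cas9 than with the base editor and 1 was higher, 10.3% beside 8.47% of all genes tested. Among the lower ones were BRIP1, the helicase that binds BRCA1, at -1.08 and MAD2L2, a shieldin subunit, at -1.43. BABAM2 was the higher one, at 0.79.

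The Cas9 calls of POLQ, FANCA and FANCD2 held under all 17 alternatives, and that of FANCI was lost only when 4 libraries were fitted alone (edgeR adjusted p 0.0554). The Cas9 calls fell to 4 without AAVS1 KO replicate 1 and to 6 without any other single library of that contrast. The base editing calls fell to 2 without AAVS1 CBE replicate 1 or HOTSCRAMBL CBE replicate 1 and to 3 without either replicate 2, while XRCC6 was called each time. Calls of the difference of effects fell to 0 without AAVS1 KO replicate 2 and to between 1 and 2 without any other library. Calls between editors at HOTSCRAMBL fell to 5 without either HOTSCRAMBL CBE library and to 6 without HOTSCRAMBL KO replicate 1 or either AAVS1 KO library. BRCA2, FANCD2 and FANCI were called there throughout. H2AX lost its Cas9 call without replicate 1 of either Cas9 group (largest edgeR adjusted p 0.0898), and without TMM scaling XRCC6 lost its Cas9 call and H2AX its base editing call. The Cas9 calls of BRCA1, BRCA2, MDC1 and RAD54L were each lost without any 1 of the 4 Cas9 libraries, with edgeR adjusted p of up to 0.208, 0.223, 0.335 and 0.266, and TP53BP1 lost its call in 11 of the 17 alternatives. MRE11 lost it without either AAVS1 KO library, HOTSCRAMBL KO replicate 2 or either AAVS1 CBE library (up to 0.321), RNF168 without replicate 1 of either Cas9 group (up to 0.16), and XRCC6 without either AAVS1 KO library or HOTSCRAMBL KO replicate 2 (up to 0.303).

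With base editing, RNF168 lost its call without HOTSCRAMBL CBE replicate 1 (largest edgeR adjusted p over the alternatives 0.092). XRCC5, POLQ and H2AX lost theirs without any 1 of the 4 base editor libraries (up to 0.124, 0.226 and 0.402), H2AX also without either AAVS1 KO library, and XRCC3 without any of them but AAVS1 CBE replicate 2 (up to 0.397). For the difference of effects FANCD2 lost its call without replicate 2 of either Cas9 group (up to 0.083), BRCA1 and FANCI without any 1 library, RNF8 without any but HOTSCRAMBL KO replicate 2, BRCA2 without any but HOTSCRAMBL CBE replicate 2 (up to 0.133), and MDC1 without any but AAVS1 CBE replicate 1 and HOTSCRAMBL CBE replicate 1 (up to 0.175). Between editors at HOTSCRAMBL, CHEK1 lost its call without any 1 HOTSCRAMBL library or either AAVS1 KO library (edgeR adjusted p up to 0.314), and RIF1 without any 1 HOTSCRAMBL library (up to 0.181). RNF8 lost it without either AAVS1 KO library, HOTSCRAMBL KO replicate 1 or either HOTSCRAMBL CBE library (up to 0.485). BLM lost it without any library but HOTSCRAMBL KO replicate 1 (up to 0.399) and FANCA without any 1 of the 8 (up to 0.27). BRCA1 lost it without HOTSCRAMBL KO replicate 2 (up to 0.0739) and MDC1 without HOTSCRAMBL CBE replicate 2 (up to 0.0623).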

How the data were processed

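RNA recovered by ChIRP was sequenced from 8 libraries, 2 in each of 4 groups taken from the sample titles. The deposited values are raw whole-number counts per gene, not normalised by the authors. Counting used, per the file headers, featureCounts 2.0.6 with Ensembl 112 on GRCh38, unstranded, with each read of a pair counted separately and without reads at several positions or over several genes. The aligner is not given in the sources used here. Reads over exon bases shared with another gene, which 27 members have, and reads that fit a pseudogene equally well (5 are named for XRCC6 and 8 for CHEK2) were therefore not counted.

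The main test was edgeR 4.0.16 (R 4.3.3) with TMM scaling, filterByExpr at a minimum count of 10, and the quasi-likelihood F-test with robust estimation. The model held group and labelled line (3 residual degrees of freedom), all 8 libraries shared the spread, and p-values were adjusted by Benjamini-Hochberg over 24057 genes with a threshold of 0.05. The replicate number is a block because same-numbered libraries carry the same line label. Their deviations correlated at 0.0154 to 0.0411 over tested genes and at -0.148 to 0.298 over the members. The 2 libraries of a group gave chi-square values of 35.7 to 42.8 for each degree of freedom, above counting noise. Differences are log2 values computed here, the SE is the log2 difference divided by the root of F, and 95% intervals use the t distribution. Its total degrees of freedom, 25.1 for NHEJ1 and 25.7 for ATM, exceed the 3 residual ones because edgeR also draws on the spread of all genes. The p-values and intervals depend on that sharing.

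Alternatives were other scaling, no filter, DESeq2 1.42.0, limma 3.58.1 (voom), no line term, the 4 libraries alone, halved counts and each library left out. The quasi-likelihood method of edgeR version 3 was added after seeing the data. The tests were also run on simulated data. There, changes larger than those of the called members were planted in HOTSCRAMBL KO only, in genes above the median level. That run does not check calls of the members' size. The members and lists were chosen with earlier results of these data known. All members were accounted for: the 16 with the smallest adjusted p got values per library, and other repair genes and markers were named at most 4 per direction. Promoters came from RefSeq for 3 members in each direction. Genome positions are those of GRCh38. The values of 1 gene of the wider list are not reported here.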

Additional observations from a re-analysis of the deposited data

Results flagged for a closer look

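For 6 of 39 members (15.4%) the effect of editing HOTSCRAMBL differed between Cas9 and the base editor by a test of the difference itself (edgeR, adjusted over all genes). The share over all genes tested was 3.19%, and 702 of the 11773 genes in the members' range of levels were called. Each of the 6 calls depended on single libraries, as described above. The log2 difference of effects, Cas9 minus base editor, was -1.17 for BRCA2, -1.0 for FANCD2, -0.88 for MDC1, -0.87 for BRCA1 and -0.66 for FANCI. For RNF8 it was 1.21. The 6 had the same sign in both replicate pairs, from which they were called, as did 31 of all 39 members. Over the same contrast the 18 proliferation markers had a median of -0.70, with 8 lower and 1 higher, and the 12 p53 targets had 4 higher. The part of these lists in the 6 differences was not tested.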

How the results depend on the processing

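No named call changed direction under any alternative tried. With the 4 libraries of a contrast alone, 4 members were called with Cas9, 1 with base editing and 3 between editors at HOTSCRAMBL, instead of 13, 6 and 10. DESeq2 called 13 with base editing, 11 for the difference of effects and 16 between editors at HOTSCRAMBL, and limma-voom 10 with base editing. Between labelled lines, where edgeR called 0, DESeq2 and limma-voom each called 2 and the quasi-likelihood method of edgeR version 3 called 1. Without the replicate block, 3 members were called for the difference instead of 6 (BRCA1, FANCI and RNF8 lost their calls), 12 with Cas9, 5 with base editing and 8 between editors at HOTSCRAMBL. The block also decided TP53BP1 with Cas9, POLQ with base editing, and BLM and FANCA between editors. Without TMM scaling the median of all genes moved to -0.17 with Cas9 and -0.153 with base editing, and the base editing calls split into 3 higher and 6 lower instead of 4 and 2. Leaving out 1 library gave 4 to 12 calls with Cas9, 2 to 6 with base editing, 0 to 2 for the difference and 5 to 8 between editors at HOTSCRAMBL. With 2 libraries a group, a lone library was assumed to vary like the others. The share of all genes called under each alternative is not given here. A higher or lower count is therefore not a result about the members. NHEJ1, with the lowest level and the widest SE, was the member most limited by depth.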
